A study of Arabidopsis thaliana with 18 samples.

Results

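The 100 genes described here set the ytterbium (Yb) roots of Arabidopsis apart from both the control and the lanthanum (La) roots. They were chosen by root values. A gene qualified when its mean over the control libraries was at least 20 normalised reads, when all 3 Yb values lay above, or all 3 below, the 6 control and La values, and when the log2 ratio of the La mean to the control mean, each with 0.5 added, stayed within 0.3 of 0. Of the 28991 genes in the root table, 19069 had the control mean asked for, 812 met the whole rule, and the 100 with the widest ratio of Yb to control were taken. In 60 of them the Yb roots were higher and in 40 they were lower. Because the rule used the values of all 3 root groups, root values of these genes are given as a description and carry no test; the shoot libraries took no part in the choice and were tested.

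The plants were Arabidopsis thaliana of the Col-0 ecotype, wild type in every group, grown in hydroponics. At 6 weeks they spent 72 h either with LaCl3 at 5 µM, with YbCl3 at 5 µM, or with no rare earth (control), and the medium of every group, controls included, held no phosphate. Roots and shoots were separated, each replicate pooled 3 plants, and 3 replicates in each of 6 groups gave 18 libraries of polyadenylated RNA. The labels leave unsaid whether replicates had a container each, so p-values measure the spread between these samples, which may be technical.

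As background, La is a light and Yb a heavy rare earth element, and both are supplied to roots as trivalent cations. Salicylic acid is made from isochorismate that a transporter exports from the plastid, is sensed by NPR family proteins and broken down by hydroxylases. Roots under attack or stress draw on it. They also draw on jasmonate and ethylene signalling and on indole glucosinolates, sulfur-containing compounds whose indole ring is hydroxylated by cytochromes P450 of the CYP81F group and then methylated by indole glucosinolate methyltransferases (IGMT).

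Depth ran from 12.8 to 16.22 M reads over the root libraries and from 12.44 to 16.35 M over the shoot libraries. The third Yb root library, called Yb 3, stood apart from Yb 1 and Yb 2. The summed level of 8 root hair markers was 4760 normalised reads in Yb 3, within the control range of 3329 to 5310, against 1836 in Yb 1 and 1277 in Yb 2, while the La libraries held 133.7 to 513.6. For 8 endodermis markers the sums were 7591 in Yb 3, 3989 in Yb 1 and 3577 in Yb 2, with controls at 5201 to 8360 and La at 1285 to 3134. The 7 green tissue markers summed to 791 in Yb 1, 413 in Yb 2 and 181.2 in Yb 3, with controls at 254 to 513.6 and La at 420.2 to 573.1. The 6 xylem markers summed to 3781 to 5926 in Yb, 5005 to 7311 in controls and 4118 to 5495 in La, and the 6 markers of dividing cells to 3087 to 3529, 2646 to 3133 and 2521 to 2870. No marker of these lists was at 0 in all root libraries, so the root markers that define the labelled tissue were present. Their part in the results on the 100 genes was not tested, and in such bulk samples fewer cells of a type and less RNA per cell cannot be told apart.

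Most of the differences were below 2-fold. Among the 60 higher genes the log2 ratio of Yb to control ran from 0.52 to 2.91 with a median of 0.74, and 16 reached at least 1. Among the 40 lower genes it ran from -2.16 to -0.52 with a median of -0.63, and 1 reached -1 or less. La ratios of the same genes lay between -0.28 and 0.28 with a median of 0.06 for the higher genes, and between -0.29 and 0.23 with a median of -0.17 for the lower ones, a closeness that the rule itself demanded. Control means ran from 20.7 to 3085 for the higher genes and from 26.78 to 3465 for the lower ones, and the median control mean of all 100 was 126.9 against 327.0 over the 19069 genes with the control mean asked for. All 3 Yb values lay outside the range of the other 6 libraries in 5.03% of those 19069 genes (959 genes; 494 or 2.59% higher and 465 or 2.44% lower). With the 2 elements exchanged in the rule, 20% (3818 genes) had La apart and 2782 met it, and the 100 widest of those had a median absolute log2 ratio of 1.9 against 0.69 for the Yb genes. In many genes the separation was narrow: in 27 of the 60 and 23 of the 40 the Yb value nearest to the other 6 libraries was within a factor of 1.1 of the nearest of them.

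**Figure D1:**
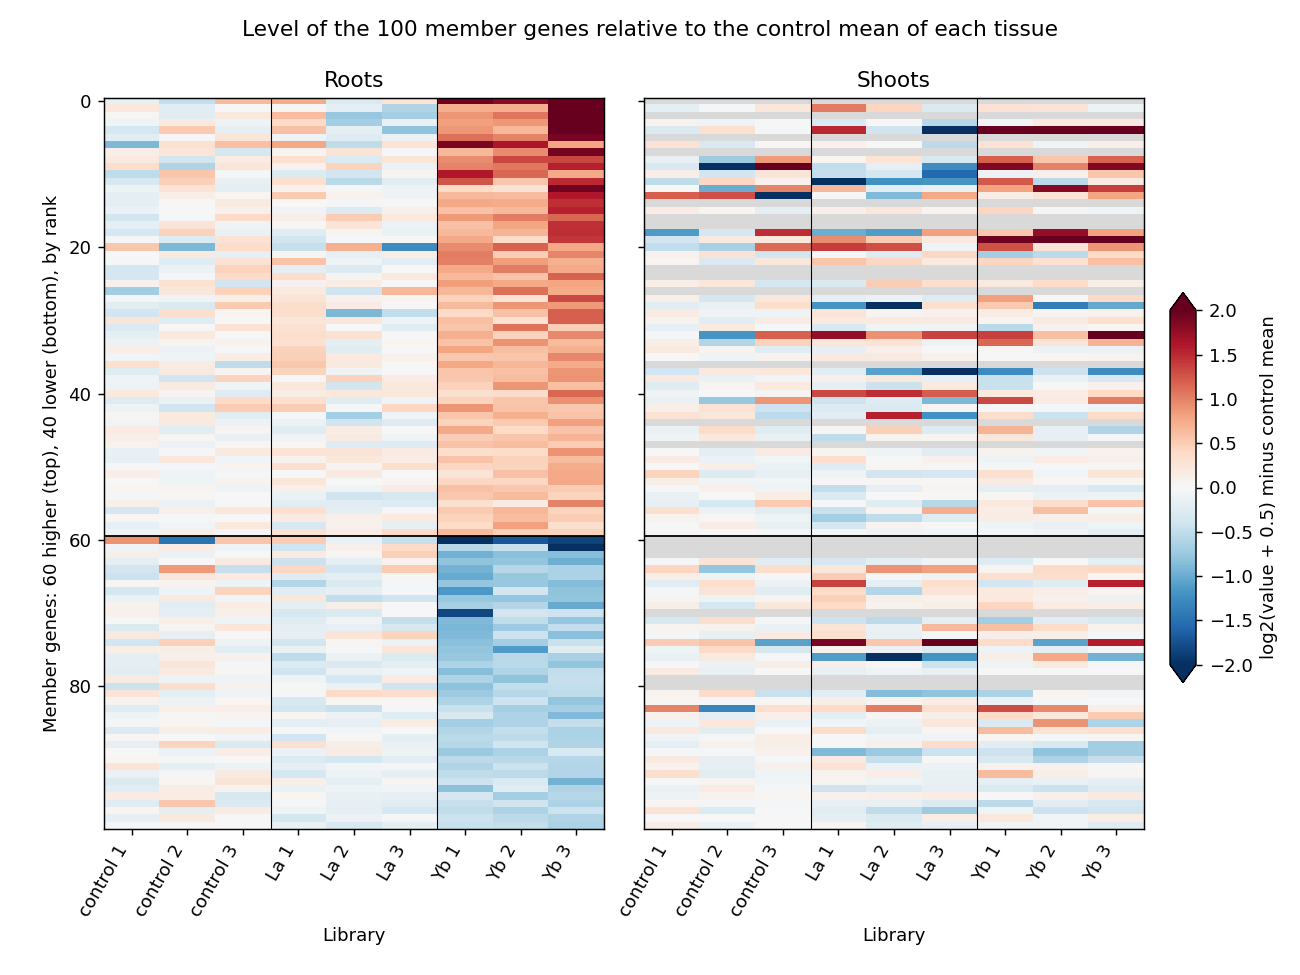
Each row is 1 of the 100 genes, the 60 higher in Yb roots above the line and the 40 lower below it, and each column a library; colour is log2(value + 0.5) minus the mean of the 3 control libraries of that tissue, capped at 2 in either direction, and grey rows have a tissue mean below 1. In roots the Yb columns stand out in both blocks with Yb 3 darkest among the higher genes, while in shoots no column stands out across the genes.

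At the thresholds of the rule the neighbours were close. The last genes taken were ARA12, a subtilase, with a log2 ratio of 0.52, and GDPD4, a glycerophosphodiester phosphodiesterase-like protein, with -0.516, and the next ones left out were MLP329 with -0.514 and the peroxidase AT2G43480 with 0.512. The La limit admitted AT2G32340 and AT1G17960, a threonyl-tRNA synthetase, with La ratios of -0.281 and -0.294. It left out the aquaporin PIP2E, whose La ratio was -0.304 and whose Yb ratio was -1.486, and the flowering-time transcription factor SPL3, whose La ratio was -0.309. The control mean admitted AT3G01830 and JRG21 at 20.7 and 20.78 and left out AT5G51500 at 19.44 and AT1G75770 at 19.66.

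Yb 3 was the highest Yb library in many of the higher genes. Medians of the 60 genes over the control mean were 0.63 in Yb 1, 0.64 in Yb 2 and 0.89 in Yb 3, on the log2 scale, and lay between -0.08 and 0.18 in the 6 control and La libraries. Yb 3 was the highest of the 3 Yb libraries in 35 of the 60 genes (58.3%), against 36.9% of the 19069 genes. It exceeded the mean of Yb 1 and Yb 2 by more than 1.5 times in 19 of the 60 (31.7%), against 7.18% of the 19069, and by more than 2 times in 7. Without Yb 3, the median log2 ratio of the 60 genes was 0.62 and 5 genes reached at least 1. For the 40 lower genes the library medians were -0.70, -0.56 and -0.63, and Yb 3 exceeded the mean of the others by more than 1.5 times in 1. The genes were ranked by the Yb mean, which 1 high library raises. Of the 399 higher genes that met the rule before ranking, 20 (5.01%) passed the 1.5 times mark.

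**Figure D2:**
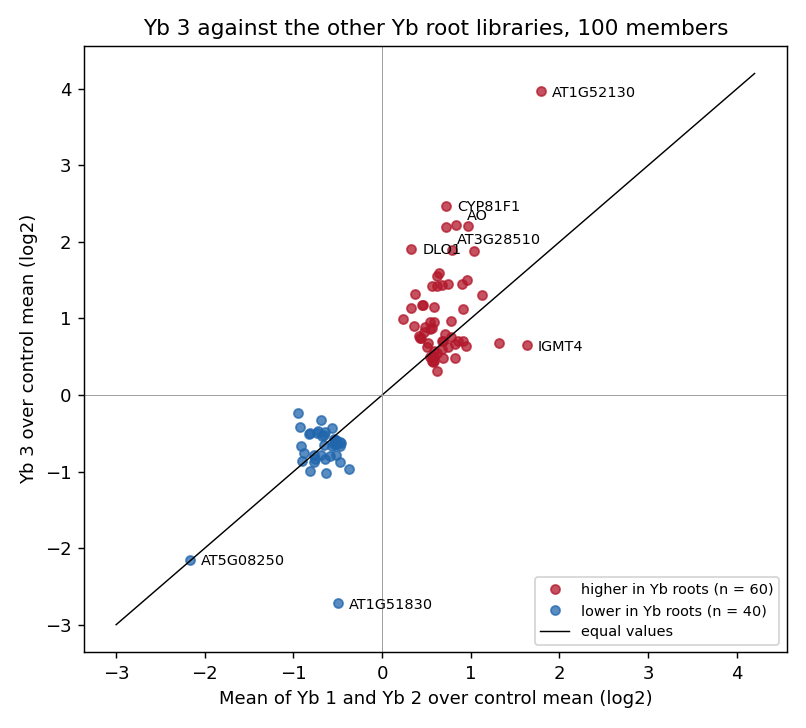
Each point is 1 of the 100 genes, placed by the mean of Yb 1 and Yb 2 over the control mean (horizontal) and by Yb 3 over the control mean (vertical), both as log2 ratios in roots; the line marks equal values. The lectin gene AT1G52130, CYP81F1, AO, AT3G28510 and DLO1 lie far above the line, IGMT4 below it, and AT1G51830 far below it among the lower genes.

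Genes of indole glucosinolate modification were among the highest ranked. IGMT3 (AT1G21110, chr1:7389981-7391603, minus strand, TAIR10.1), a methyltransferase of indole glucosinolates, held 111, 233 and 154 normalised reads in the control libraries, 131, 121 and 164 in the La libraries and 480.3, 351 and 267 in the Yb libraries. IGMT4 (AT1G21130, chr1:7398814-7400736, minus strand) held 46.6, 108 and 133 in controls, 149.8, 61.2 and 106 in La and 324, 269 and 150.5 in Yb. Its Yb 3 value was thus only just above La 1. In both genes Yb 1 was the highest library and Yb 3 the lowest of the Yb group, and the log2 ratios of 1.14 and 1.37 became 1.32 and 1.63 without Yb 3. Between them lies IGMT2 (AT1G21120), which was not among the 100: its Yb values of 172, 106 and 138 were above the controls at 36.6, 91.6 and 59.6 and gave the same log2 ratio as IGMT3, 1.14, but its La values of 41.1, 19.2 and 39.4 gave -0.9, outside the La limit. IGMT2 and IGMT3 share 96.3% identity over 1363 bases, so the counting could have split or moved reads between them. The other 2 IGMT genes, taken as a family after their values were seen, were not among the 100: IGMT1 had a log2 ratio of -0.37 and IGMT5 of 0.35.

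The 250 bases before the annotated starts of the 2 member IGMT genes are shown because these neighbours were both higher in the 3 Yb libraries. They are read from the RefSeq genome TAIR10.1 on the gene's strand, 5′ to 3′, and capitals mark TTGAC or its reverse complement GTCAA, the core of the W box that WRKY transcription factors bind.
IGMT3 (chr1:7391604-7391853, minus strand): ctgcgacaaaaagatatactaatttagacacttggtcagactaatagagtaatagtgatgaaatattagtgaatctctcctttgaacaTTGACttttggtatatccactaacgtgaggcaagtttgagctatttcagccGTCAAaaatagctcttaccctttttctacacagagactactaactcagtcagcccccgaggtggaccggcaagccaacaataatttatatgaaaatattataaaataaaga
IGMT4 (chr1:7400737-7400986, minus strand): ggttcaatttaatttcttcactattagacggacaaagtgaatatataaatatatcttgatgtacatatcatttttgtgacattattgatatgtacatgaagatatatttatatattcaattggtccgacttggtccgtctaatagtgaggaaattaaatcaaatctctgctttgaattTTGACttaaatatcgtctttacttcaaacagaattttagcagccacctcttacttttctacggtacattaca

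CYP81F1 (AT4G37430, named CYP91A2 in RefSeq, chr4:17597110-17598958, plus strand), a cytochrome P450 that hydroxylates indole glucosinolates, held 319, 237 and 279 in controls, 281, 244 and 182 in La and 458, 459 and 1548 in Yb. Yb 1 and Yb 2 were close to each other and above every control and La library, and Yb 3 was higher than both. Its log2 ratio of 1.56 became 0.72 without Yb 3. An annotated long noncoding RNA lies over 1820 of its bases on the other strand. Its relatives did not meet the rule. CYP81F2 held 183, 130.1 and 94.2 in Yb against 54.4, 103 and 80.2 in controls, with a La log2 ratio of -1.26, and CYP81F3 and CYP81F4 had Yb log2 ratios of 0.18 and 0.15. FMO GS-OX2 (AT1G62540), a flavin monooxygenase that oxidises the side chain of aliphatic glucosinolates, was lower in Yb, at 56.2, 59.6 and 44.03 against 94.3, 76.7 and 98.7 in controls and 78.1, 96.97 and 90.2 in La. A list of 16 genes of sulfur assimilation and glucosinolates held none of the 100; none of them passed the test in Yb roots in either direction, and the list's median log2 difference was 0.29 against 0.00 over all genes tested.

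Of the genes that handle salicylic acid, 3 were among the higher ones, and in each Yb 3 was highest. EDS5 (AT4G39030, chr4:18185437-18189224, plus strand), the plastid transporter that exports the precursor of salicylic acid, held 652, 556 and 611 normalised reads in the control libraries, 519, 516 and 499 in the La libraries and 754, 678 and 1203 in the Yb libraries. All 3 La values were below all controls and all 3 Yb values above them, and the Yb log2 ratio of 0.53 was 0.24 without Yb 3. A neighbouring gene, AT4G39040, overlaps 213 of its bases on the other strand. NPR3 (AT5G45110), a receptor-like co-repressor that binds salicylic acid, held 819, 779.8 and 902 in controls, 995, 887 and 864 in La and 1146, 1014 and 2082 in Yb. DLO1 (AT4G10500), an oxygenase that hydroxylates salicylic acid and so removes it, held 719.9, 930.2 and 680.4 in controls, 821, 757 and 718 in La and 1013, 936 and 2919 in Yb. In DLO1 the Yb 2 value of 936 was just above the highest control of 930.2, and without Yb 3 the log2 ratio of 1.06 was 0.33.

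Relatives of these genes, again looked up after the values were seen, did not meet the rule. The NPR family members NPR1 and NPR4 had Yb log2 ratios of 0.14 and -0.05. DMR6, the other salicylic acid hydroxylase expressed in these roots, held 1034, 969.9 and 2095 in Yb against 1570.0, 1542 and 1401 in controls and 913, 833 and 716 in La, so it was below the controls in Yb 1, Yb 2 and every La library and above them in Yb 3. EDS5 was the only one of the 100 on a list of 28 genes of immunity and salicylic acid, of which 27 entered the fit over all root genes (limma on log2(value + 0.5), 22729 genes, adjusted p under 0.05). In Yb roots 2 of the 27 rose and 0 fell, with a median log2 difference of 0.25, where 1.24% of all genes tested passed (0.871% rose and 0.37% fell) and the median of all was 0.00. In La roots 3 rose and 7 fell, with a median of -0.39, where 18.9% of all genes passed (9.41% rose and 9.51% fell). The share for Yb depended on single libraries: 282 of all genes passed, but 8 without Yb 1 and 1140 without Yb 3. For La 4300 passed, with 2588 without La 2 and 4781 without Yb 3.

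The 2 that rose in Yb were FRK1 and CYP71A12. FRK1, a receptor kinase gene induced by bacterial flagellin, held 71.5, 58.6 and 84.98 in Yb and 14.4, 24.9 and 23.6 in controls, a log2 difference of 1.77 ± 0.30 (SE; limma adjusted p = 0.0283). It rose in La too, where it held 101, 53.3 and 66.2 (log2 difference 1.77, limma adjusted p = 0.00357). CYP71A12, a cytochrome P450 of indole defence compounds, held 1028, 904 and 466 in Yb and 139.8, 220.1 and 171 in controls (log2 difference 2.12 ± 0.29 SE, limma adjusted p = 0.0212), and its La values of 362, 304 and 336 did not pass (limma adjusted p = 0.0545). Both Yb calls were lost when control 3, Yb 1 or Yb 2 was left out, and 1 of them when control 1 or control 2 was left out.

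Several of the other list genes were high in Yb 3 and not in Yb 1 or Yb 2. ICS1, the isochorismate synthase that starts salicylic acid synthesis, held 346, 292 and 1431 in Yb against 269.5, 409 and 318 in controls (log2 difference 0.68 ± 0.57 SE, limma adjusted p = 0.598). PBS3, which conjugates isochorismate to glutamate, held 253, 204 and 639 against 126, 363 and 123, with control 2 the highest control. Yb 3 was the highest of the 9 root libraries in 9 of the 27 list genes (33.3%), against 12.3% of the 22729 genes tested; control 2 was highest in 6 and the other 7 libraries in 0 to 4 each. In FMO1, SARD1 and ALD1, which act in systemic immunity, the Yb 3 values were 1470.0, 547 and 316, and the control 2 values 1023, 396 and 427 were the highest of the controls.

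**Figure D3:**
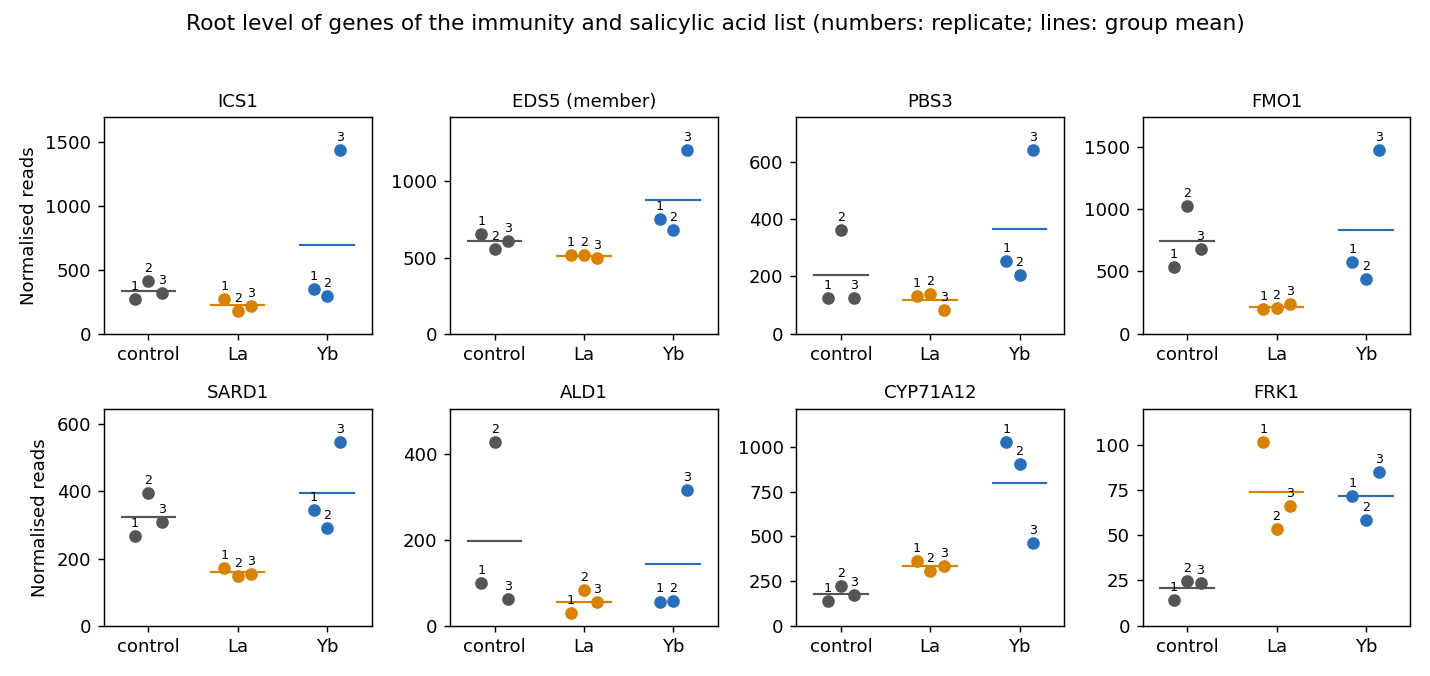
Root values in normalised reads of 8 genes of the immunity and salicylic acid list, on axes that start at 0; points are libraries, numbered by replicate, and lines are group means. EDS5, the only one of the 100 genes shown, has all Yb libraries above all others, while ICS1, PBS3, FMO1, SARD1 and ALD1 are high in Yb 3 only among the Yb libraries and CYP71A12 and FRK1 are above the controls in all 3.

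Regulators of defence were found on both sides. WRKY46 (AT2G46400), a transcription factor of basal resistance that also represses the malate channel gene ALMT1, held 202, 218 and 316 in controls, 304, 203 and 227 in La and 329.8, 354 and 456 in Yb, so the lowest Yb value was close to the highest control. WRKY11 (AT4G31550), known as a negative regulator of basal resistance, was lower, at 1496, 1478 and 1422 in Yb against 1943, 2082 and 2405 in controls and 1681, 1995 and 1866 in La. MYB14 held 78.8, 71.7 and 57.6 in controls, 75.95, 79.5 and 80.6 in La and 85.8, 88.4 and 154 in Yb, and its log2 ratio of 0.65 was 0.33 without Yb 3. The E3 ubiquitin ligase gene ATL9 (AT2G35000), which responds to fungal chitin, was lower in Yb: it held 496, 516 and 457 in controls, 325, 402 and 483 in La and 285, 288 and 267 in Yb, so the Yb libraries lay within a narrow band under every other library.

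On the jasmonate side, ORA59 (AT1G06160), an ERF transcription factor that joins jasmonate and ethylene signals, held 128, 299.8 and 120.2 in controls, 223, 128 and 238 in La and 85.8, 112 and 108 in Yb. Control 2 was the highest library, the other 2 controls were close to the Yb values, and the log2 ratio was -0.84. JRG21 (AT3G55970), an oxygenase that hydroxylates jasmonic acid, held 27.7, 9.96 and 24.7 in controls, 13.7, 31.5 and 7.68 in La and 37.2, 43.7 and 32.8 in Yb, low levels at which a few reads change the ratio of 0.85. ORA59 was the only one of the 100 on a list of 16 jasmonate genes; of the 15 in the fit none rose or fell in Yb roots by limma at an adjusted p under 0.05, with a median log2 difference of 0.09, and in La roots 1 fell, the synthesis gene AOS (log2 difference -0.51, limma adjusted p = 0.0182). By edgeR and DESeq2 the calls over both lists in Yb roots were also 2. AT4G19925, with the TIR domain found in many immune receptors, held 36.2, 41.7 and 66.6 in Yb against 21.1, 28.9 and 22.6 in controls. The second TIR domain gene, AT4G23515, held 132.5, 179 and 139 in Yb against 51.02, 97.6 and 115 in controls and 94.9, 62.9 and 132.5 in La. Both genes were higher in every Yb library than in every control, but in AT4G23515 Yb 1 and La 3 were equal to the digits given.

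A calcium-binding protein, an ATPase, a methionine sulfoxide reductase and a mitochondrial import receptor were also among the higher genes. The EF-hand gene AT3G01830, a calcium-binding protein, held 25.5, 12.95 and 23.6 in controls, 21.1, 27.1 and 18.2 in La and 40.03, 41.7 and 59.4 in Yb, and it overlaps the receptor kinase gene LYK2 on the other strand over 2067 bases. AT3G28510, an AAA-type ATPase, held 755, 1396 and 860.2 in controls, 1460.0, 845 and 557 in La and 1765, 1533 and 4572 in Yb. Its Yb 2 value of 1533 was close to La 1 and control 2, and its ratio of 1.39 was 0.72 without Yb 3. The methionine sulfoxide reductase gene MSRB8 held 227, 174 and 362 in Yb against 132, 111 and 163 in controls. TOM20-1, a receptor of mitochondrial protein import, held 663, 658 and 1285 against 374, 466 and 435, with La 1 at 611. Other genes with redox product names were lower in Yb, with log2 ratios of -0.55 for AT1G07080 and -0.54 for HCC2, both of the thioredoxin superfamily, -0.65 for the rubredoxin-like AT1G52710 and -0.52 for the oxidoreductase AT2G24580. AT3G20590, a LEA hydroxyproline-rich glycoprotein gene, held 158, 182 and 217 in controls, 174, 154 and 169.9 in La and 397, 368 and 685 in Yb, and all 3 Yb libraries were well above the others.

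The cofactor NAD is made anew from aspartate or salvaged from nicotinate, and 1 gene of each route was among the higher ones. AO (AT5G14760, chr5:4768263-4772153, plus strand), the aspartate oxidase that opens the route from aspartate, held 80.97, 97.6 and 80.2 normalised reads in the control libraries, 113, 53.3 and 77.8 in the La libraries and 152, 157 and 403 in the Yb libraries. Yb 3 was far above the rest, and the log2 ratio of 1.45 was 0.83 without it. NAPRT2 (AT2G23420), which salvages nicotinate, held 375, 353 and 394 in controls, 442, 371 and 386 in La and 497, 497 and 639 in Yb. The remaining genes of the pathway, looked up after the values were seen, had smaller Yb ratios: 0.27 for quinolinate synthase QS, whose Yb 3 value of 987 was its highest, 0.15 for QPT, 0.1 for NAPRT1 and 0.07 for NMNAT.

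Genes of small proteins with a heavy-metal-associated domain included 2 adjacent ones on chromosome 5. AT5G52760 (chr5:21386727-21387714, plus strand), annotated as of the copper transport protein family, held 78.8, 52.8 and 77.1 normalised reads in the control libraries, 85.5, 56.8 and 80.6 in the La libraries and 133, 174 and 173 in the Yb libraries. Its neighbour AT5G52750 (chr5:21383979-21385015, plus strand), annotated as of the heavy metal transport and detoxification superfamily, held 122, 137 and 139 in controls, 165, 116 and 135 in La and 197, 246 and 206 in Yb. In both the Yb libraries were close together and Yb 3 was not apart, with log2 ratios of 1.19 and 0.7. AT5G52690 (chr5:21370499-21371592, plus strand), also of the copper transport protein family, was not adjacent to them. It held 45.5, 37.8 and 51.4 in controls, 68.6, 26.2 and 27.8 in La and 82.9, 94.3 and 209.9 in Yb. Its ratio of 1.51 was 0.97 without Yb 3.
The 250 bases before the starts of the 2 adjacent genes are given for the same reason and in the same way as those of the IGMT genes.
AT5G52760 (chr5:21386477-21386726, plus strand): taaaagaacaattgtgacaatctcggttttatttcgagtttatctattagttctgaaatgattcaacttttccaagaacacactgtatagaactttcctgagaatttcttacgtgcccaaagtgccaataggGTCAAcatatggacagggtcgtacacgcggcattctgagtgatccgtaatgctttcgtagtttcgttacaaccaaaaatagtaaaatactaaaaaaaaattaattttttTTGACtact
AT5G52750 (chr5:21383729-21383978, plus strand): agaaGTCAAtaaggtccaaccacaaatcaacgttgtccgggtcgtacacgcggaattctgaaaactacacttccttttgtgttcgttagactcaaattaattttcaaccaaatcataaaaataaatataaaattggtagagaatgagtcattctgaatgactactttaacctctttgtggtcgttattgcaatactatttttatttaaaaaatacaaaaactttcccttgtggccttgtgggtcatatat

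The magnesium transporter-like gene AT5G09720, of the CorA family of divalent cation channels, held 94.3, 119.5 and 160.3 in controls, 133, 174 and 140.2 in La and 220.2, 248 and 271 in Yb, higher in all 3 Yb libraries with a log2 ratio of 0.98.

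**Figure D4:**
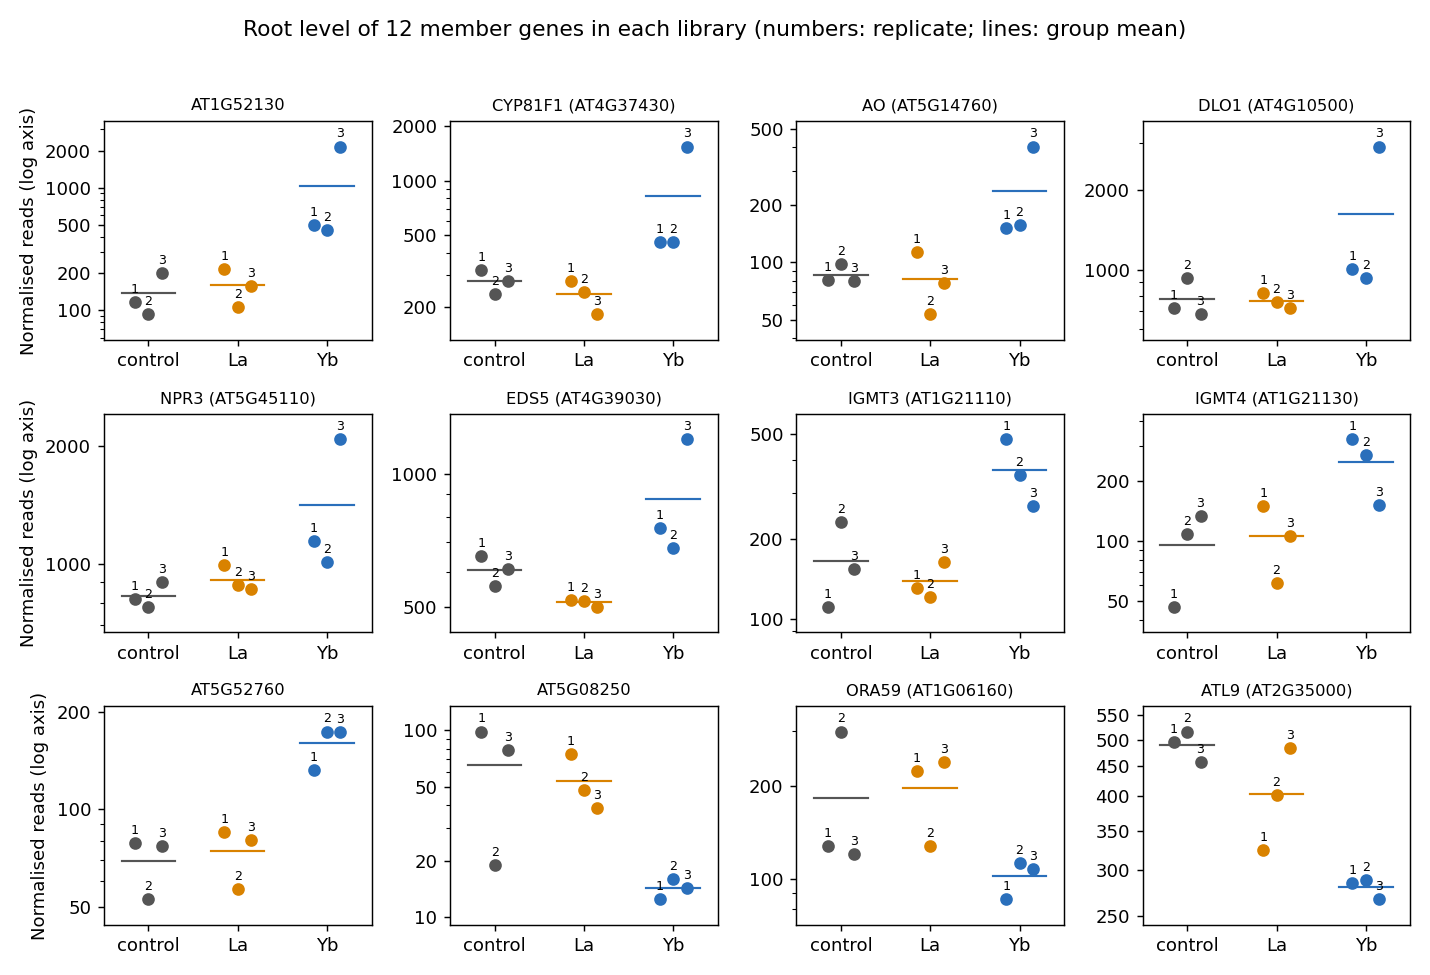
Root values in normalised reads, on log axes, of 12 of the 100 genes, with 1 point per library numbered by replicate and lines at the group means. Yb 3 stands above Yb 1 and Yb 2 in AT1G52130, CYP81F1, AO, DLO1, NPR3 and EDS5, below them in IGMT3 and IGMT4, and the 3 lower genes AT5G08250, ORA59 and ATL9 have their Yb libraries close together.

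Germin-like proteins, cell wall glycoproteins of which some make hydrogen peroxide, had 3 genes in a run on chromosome 5 between 15653125 and 15680141. AT5G39130 held 86.5, 94.6 and 62.7 in controls, 83.3, 96.1 and 78.7 in La and 128, 154 and 304 in Yb. AT5G39160 held 36.6, 63.7 and 42.1 in controls, 39.03, 48.1 and 42.2 in La and 72.4, 74.5 and 129 in Yb. GLP6 held 43.3, 50.8 and 41.1 in controls, 41.1, 34.1 and 37.4 in La and 61, 64.5 and 79.9 in Yb. Yb 3 was the highest library in all 3. The run spans 8 annotated genes, of which 7 are in the table. The neighbours AT5G39110 and AT5G39120 had Yb ratios of 0.58 and 0.93, the second with a La ratio of 0.45, outside the limit. In AT5G39110 Yb 3 was the lowest Yb library, at 312.3, and lay below La 1 at 343.9. AT5G39150, in the same run, had a Yb ratio of 0.08 and a La ratio of -0.58; its control 1 value of 352.7 was its highest, and its Yb values of 193.5, 191.6 and 228.3 were above the other 2 controls. AT5G39160 is 99.7% identical over 1030 bases to GER2, which is not among the 100, and 97.5% to AT5G39130 over 763 bases, so the values of these copies are uncertain.

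The widest ratio of all belonged to a lectin. AT1G52130 (chr1:19400510-19402789, minus strand), annotated as a mannose-binding lectin, held 118, 92.6 and 204 normalised reads in the control libraries, 218, 107 and 158 in the La libraries and 498, 456 and 2169 in the Yb libraries. All Yb libraries were above every other library, Yb 3 by the most, and the log2 ratio of 2.91 was 1.79 without it. The jacalin lectin AT1G33790 held 693, 936 and 769.9 in Yb against 470.3, 574 and 477 in controls. Among peroxidases, enzymes that cross-link cell wall phenolics, PER4 held 52.1, 90.6 and 58.6 in controls, 82.3, 44.6 and 55.7 in La and 156, 95.3 and 184 in Yb. AT5G64120 held 68.8, 79.7 and 49.3 in controls, 68.6, 71.6 and 65.3 in La and 116, 110.2 and 112 in Yb, with Yb values nearly equal to each other.

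Genes of pectin enzymes were found on both sides. The pectin methylesterase gene AT2G26440, whose product removes methyl groups from pectin, held 90.5, 80.4 and 73.7 in Yb, 66.5, 41.9 and 38.4 in La and 43.3, 37.8 and 54.5 in controls. A second methylesterase gene, AT2G47550, held 656, 551 and 779 in Yb, 512, 495 and 399 in La and 355, 458 and 399.8 in controls. The pectin lyase-like gene AT2G19150 was lower, at 46.6, 39.8 and 43.2 in controls, 48.5, 43.7 and 60.5 in La and 21.9, 23.8 and 23.6 in Yb. PAL3, of the phenylalanine ammonia-lyases that open the phenylpropanoid pathway, held 67.7, 56.8 and 61.7 in controls, 85.5, 52.4 and 62.4 in La and 107, 94.3 and 101 in Yb, while PAL1, PAL2 and PAL4 had Yb log2 ratios of 0.22, 0.34 and -0.19.

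Transport and primary metabolism supplied members on both sides. TDT (AT5G47560), the tonoplast carrier that moves malate into the vacuole, was lower in Yb: it held 246, 389 and 380.3 in controls, 276, 290.0 and 337 in La and 164, 197 and 214 in Yb. AAP2, an amino acid permease of the vascular tissue, held 2870.0, 2305 and 4081 in controls, 2929, 4129 and 3340.0 in La and 4361, 4637 and 5603 in Yb, so the lowest Yb value was only just above the highest La and control values. UMAMIT40, of a family of amino acid exporters, held 714, 721 and 1044 in Yb against 671, 669 and 625 in La and 503, 546 and 630.0 in controls. NADP-ME3, which makes pyruvate from malate, NAGS2, which opens arginine synthesis, and FRUCT5, a beta-fructofuranosidase, were higher, with log2 ratios of 0.58, 1.0 and 0.73; without Yb 3 these were 0.58, 0.62 and 0.45.

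Genes with cell cycle or chromatin product names were found on both sides. The cyclin gene CYCJ18 held 32.2, 36.9 and 28.8 in controls, 33.8, 28.8 and 35.5 in La and 66.7, 45.7 and 64.5 in Yb. CYCA2;4, an A-type cyclin, held 189.7, 203 and 246 in controls, 169, 225 and 188 in La and 279, 375 and 263 in Yb. The histone gene AT3G53650 held 186, 173 and 153 in controls, 163, 192 and 161 in La and 241, 249 and 273 in Yb. The DNA repair gene AT4G03130, with a BRCT domain, held 49.6, 55.6 and 50.2 in Yb against 34.4, 38.8 and 28.8 in controls. AT1G12330, annotated as a cyclin-dependent kinase-like protein, was lower, at 43.8, 50.6 and 38.9 in Yb against 70.99, 62.7 and 69.9 in controls. The summed dividing cell markers given above were 3087 to 3529 in Yb and 2646 to 3133 in controls; their part in these values was not tested. A list of 15 cell cycle genes, which held none of the 100, had 14 with a positive Yb difference and none past the limma threshold. Their median log2 difference was 0.19 against 0.00 over all genes tested. The share of positive differences over all root genes is not given here, so the 14 cannot be weighed against it.

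Among the 40 lower genes, AT5G08250 had the widest ratio. This cytochrome P450 gene (chr5:2653554-2655870, minus strand) held 98.7, 18.9 and 78.1 normalised reads in the control libraries, 74.9, 48.1 and 38.4 in the La libraries and 12.4, 15.9 and 14.3 in the Yb libraries. The Yb values were alike, and control 2 was close above them. AT1G51830, a leucine-rich repeat receptor kinase gene, held 1009, 1175 and 1003 in controls, 803, 1126 and 1386 in La and 719.6, 780.3 and 161 in Yb; here Yb 3 was far below Yb 1 and Yb 2, and the log2 ratio of -0.94 was -0.5 without it. The kinase genes AT2G46850 and AT5G45780 were higher, at log2 ratios of 0.81 and 0.54.

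A few of the lower genes encode chloroplast proteins, while EDS5, the plastid transporter described above, was among the higher genes. CP12-1, a small protein that holds Calvin cycle enzymes together, held 66.6, 83.7 and 97.6 in controls, 88.6, 71.6 and 83.5 in La and 61, 66.5 and 41.98 in Yb. LPA19, an assembly factor of photosystem II, held 61.01, 79.7 and 75.02 in controls, 65.4, 67.3 and 69.1 in La and 40.03, 60.6 and 47.1 in Yb. The NusB domain gene AT4G26370 held 49.9, 57.8 and 64.8 in controls, 42.2, 50.7 and 60.5 in La and 32.4, 32.8 and 28.7 in Yb, with all Yb values under all others. These levels stand beside green tissue sums of 791, 413 and 181.2 in Yb 1, Yb 2 and Yb 3; their part was not tested. The protein phosphatase 2C gene AT5G27930 held 354, 358 and 329.7 in Yb against 528, 515 and 496 in controls and 391, 519 and 448 in La. The TraB family gene AT2G32340 held 84.8, 83.4 and 81.9 in Yb against 126, 119 and 122 in controls and 101, 96.1 and 105 in La. In both the 3 Yb values were close together, and the library next above them was a La library. The uncharacterized genes AT2G05185 and AT5G27440 had ratios of -0.78 and -0.72, and AT1G15640, also uncharacterized, was higher at 1.02.

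Some values could not be assigned to 1 gene with certainty. Near-identical copies, at 95% identity or more over at least 200 bases, existed for 6 of the 100 genes. Another annotated gene overlapped 20 of them, 17 on the other strand and 3 on the same strand; the library kit kept strand, but the counting's strand setting is not given in the sources used here. AT1G07590, a TPR-like gene with 3920.0, 3063 and 3411 in controls, 3061, 4056 and 4672 in La and 1878, 2569 and 1939 in Yb, shares 418 bases on its own strand with the metallothionein gene MT1A, which was listed at 0 in all root libraries. AT1G29180 shares 628 identical bases with AT1G29179. Of the 100 genes 11% had a product described as uncharacterized, hypothetical or unknown, against 6.48% of the 19069.

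Promoter windows, 250 bases before to 50 after the annotated start, were searched on both strands for 8 short motifs. The W box core TTGAC was found in 36 of the 60 higher genes (60%) and 27 of the 40 lower genes (67.5%), against 51.6% of the eligible genes and 49.5% of all windows. At least 2 copies, counting both strands, were found in 30% and 22.5%, against 18.4% of the eligible genes. The G box CACGTG was in 3.33% of the higher and 15% of the lower genes against 8.44% of the eligible ones, the drought element core CCGAC in 10% and 22.5% against 16.2%, and the site II element TGGGCC in 8.33% and 7.5% against 18.7%. The phosphate starvation element GNATATNC was in 5% of each group against 6.19%, the auxin element TGTCTC in 13.3% and 12.5% against 13.7%, the GCC box GCCGCC in 3.33% and 2.5% against 2.67%, and AACGG, the core of the mitotic element, in 26.7% and 22.5% against 26.2%. These are shares of letters found in a window, with no test.

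Shoots gave a comparison whose values took no part in the choice. Roots and shoots were separated from the plants, so both tissues may carry the state of the same plants, which was not tested. Of the 100 genes, 84 passed the filter of at least 1 normalised read in at least 3 shoot libraries (48 of the 60 and 36 of the 40), 16 did not, and 6 of those were at 0 in all 9 libraries. The median shoot control mean was 38.6 over the 100 against 222.1 over the 19069. No member passed an adjusted p of 0.05 by limma in any of the 3 shoot contrasts, and none did by edgeR or DESeq2. All genes together gave few calls: 0.041% for Yb against control (9 of 21967), 0.0865% for La against control (19 genes) and 0.0091% for La against Yb (2 genes). In simulated shoot data of this design, with 21716 genes, limma called 39 of 50 genes changed 1.5-fold and 46 of 50 changed 2-fold. It also made 12 false calls. The changed genes were drawn only from those with a mean of at least 20 reads. A shoot control mean of at least 20 was reached by 62 of the 100. The simulation therefore cannot tell whether changes of these sizes would have been called in the members.

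At an unadjusted p under 0.05 there were 5 higher and 4 lower members for Yb against control (10.7%), where all genes tested gave 8.44%, 4.6% higher and 3.84% lower. For La against control there were 4 and 7 (13.1%), where all genes gave 8.28%, 3.94% higher and 4.34% lower. For La against Yb there were 3 and 12 (17.9%), where all genes gave 6.77%, 2.67% higher and 4.1% lower. The last count came from the genes that were higher in Yb roots: 11 of the 48 were lower and 2 higher in La than in Yb shoots (27.1%), while the 36 genes lower in Yb roots had 1 each way (5.56%). Of the 48, 33 had a positive shoot difference for Yb against control (68.8%, against 50.6% of all genes), with a median log2 of 0.11. For La against Yb 34 were negative and 14 positive (29.2% positive, against 49.6% of all genes), with a median of -0.11. Medians over all genes were 0.00. The 36 had medians of 0.00 and -0.02, with 55.6% and 44.4% positive. The 3 libraries of each group did not overlap in 19% of the 84 members for Yb against control, 15.5% for La against control and 22.6% for La against Yb, against 14.1%, 12.4% and 14% of all genes tested. For La against Yb, 2 of the 48 lay apart upward and 12 downward (29.2%), against 6.73% and 7.31% of all genes. The 3 contrasts share their groups of libraries, and none of these single differences passed the adjustment over all genes.

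Of the 11, 4 were the defence genes EDS5, DLO1, WRKY46 and NPR3. EDS5 held 116, 101 and 185 in control, 128, 109 and 87.8 in La and 148, 165 and 192 in Yb shoots, with La below Yb (log2 difference -0.64 ± 0.21 SE, limma adjusted p = 0.639). DLO1 held 55.4, 27.3 and 109.8 in control, 86.6, 46.8 and 49.7 in La and 96.9, 196 and 145 in Yb shoots (La against Yb -1.25 ± 0.52 SE, limma adjusted p = 0.731). WRKY46 held 116, 74.5 and 235 in control, 94.6, 106 and 67.7 in La and 318, 142 and 259.5 in Yb shoots. NPR3 held 603, 442 and 649 in control, 488, 513 and 468 in La and 979, 552 and 727 in Yb shoots. In all 4 the La values lay below all the Yb values, and control 3 reached into the Yb range in all 4, as did control 1 in NPR3. The 2 genes higher in La than in Yb shoots were MYB14 and AAP2. MYB14 held 4.94, 5.25 and 5.38 in control, 13.7, 15.3 and 12.7 in La and 6, 5.78 and 6.97 in Yb shoots, so its La values lay above all others (La against Yb 1.09 ± 0.36 SE, limma adjusted p = 0.611). Against control its La difference was 1.33 ± 0.36 (SE; limma adjusted p = 0.268).

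MSRB8 and AT3G28510 showed the widest shoot differences between Yb and control. MSRB8 held 1.98, 3.15 and 3.23 in control, 5.70, 4.07 and 3.17 in La and 12, 16.4 and 16.5 in Yb shoots, a log2 difference of 2.25 ± 0.43 (SE; limma adjusted p = 0.131). AT3G28510 held 8.90, 13.7 and 10.8 in control, 31.9, 8.14 and 0 in La and 61.7, 77.1 and 79.2 in Yb shoots, a difference of 2.67 ± 1.37 (SE; limma adjusted p = 0.661), with no overlap between Yb and the other groups. At IGMT4, by contrast, shoots held 2626, 1751 and 2187 in control, 2301, 2155 and 1497 in La and 2629, 2055 and 2321 in Yb shoots, and the log2 difference of Yb from control was 0.11 ± 0.2 (SE; limma adjusted p = 0.921). AT5G52760 held 145, 97.6 and 291 in control, 164, 194 and 128 in La and 366, 235 and 364 in Yb shoots (0.97 ± 0.41 SE, limma adjusted p = 0.584).

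**Figure D5:**
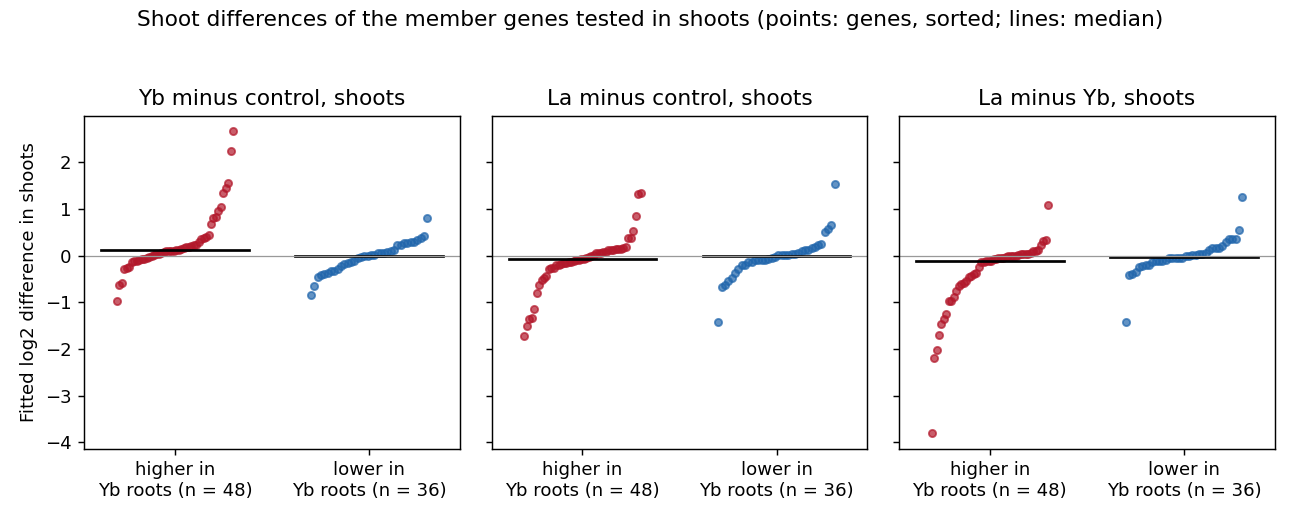
Fitted shoot log2 differences of the 84 genes tested in shoots, for 3 contrasts, with 1 point per gene sorted within its group and lines at the medians; groups are the 48 genes higher and the 36 genes lower in Yb roots. Medians lie at 0.11, -0.06 and -0.11 for the first group and at 0.00, 0.00 and -0.02 for the second, with a tail of positive Yb and negative La minus Yb values in the first.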

How the data were processed

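RNA was measured in 18 libraries from 6 groups of 3. Per the submitters' processing notes, the build was TAIR10 and the tools were HTSeq 0.6.1p1, TopHat2 2.1.1 and Trimmomatic 0.36.1, with roles and strand setting not given in the sources used here. As deposited, the values are a signal per gene: all (100%) are whole reads, within 0.001, divided by 1 factor per library (0.9015 to 1.1446 in roots, 0.8775 to 1.1662 in shoots), although the authors named them as a length-scaled unit. Each tissue was normalized apart, so tests stayed within a tissue.

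Genes with a value of at least 1 in at least 3 libraries of the tissue were fitted as log2(value + 0.5) with limma 3.58.1 in R 4.3.3 (9 libraries, trend and robust moderation, two-sided, Benjamini-Hochberg over all genes, 0.05), after tests on simulated data. Alternatives included edgeR 4.0.16 and DESeq2 1.42.0 on the recovered reads. Intervals from reads would cover counting error only, and with 3 replicates a group precision is set by the spread between libraries. Root ratios are log2 of means plus 0.5.

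The 100 genes, the 26 lists and the tests were chosen with earlier results of these data known. Named genes are the 12 highest and 8 lowest ranked, list members, up to 3 genes of each product family with at least 3, the genes beside each threshold, and shoot calls, of which there were none; every other gene named, and the families and pathways around members, were chosen after their values were seen. Names, coordinates and sequences come from RefSeq TAIR10.1, in which all 100 genes matched by locus; the files carry no coordinates.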

Additional observations from a re-analysis of the deposited data

Results flagged for a closer look

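Of the 84 genes tested in shoots, 5 had every Yb library on the opposite side of every control library from the one seen in roots. Among the 48 genes higher in Yb roots, 3 lay apart on the opposite side and 5 on the same side. Among the 36 lower ones these counts were 2 and 6. Over all genes tested in shoots, the Yb and control groups lay apart in 14.1%, both directions counted. The difference between the tissues was not tested, and the root side was fixed by the choice of the genes. AT2G38830, a ubiquitin-conjugating enzyme-like gene, was higher in Yb roots and had a shoot log2 difference of -0.97 ± 0.74 SE at very low levels, 0.8575 to 1.93 normalised reads in Yb shoots. AT5G60150 and ARA12, also higher in Yb roots, had shoot differences of -0.23 ± 0.16 SE and -0.09 ± 0.06 SE. AT4G19090 and AT4G40080, lower in Yb roots, had shoot differences of 0.38 ± 0.22 SE and 0.42 ± 0.24 SE. None of the 5 shoot differences passed the threshold by limma, with adjusted p from 0.682 to 0.762.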

How the results depend on the processing

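The choice of the 100 genes depended on single libraries. Leaving out each root library in turn kept 56 to 84 of them among the 100 then taken, with 56 without La 1 and without Yb 3, and 907 to 2093 genes met the rule, against 812, with 2093 without Yb 2 and 1439 without Yb 3. Other settings kept 68 to 100 genes and left 703 to 858 meeting the rule. The direction of each Yb to control ratio is fixed by the choice of the genes. Sizes without Yb 3 stand beside some of the genes only. Where none is given, Yb 3 can still have raised the ratio. In NPR3 it was 0.76 with Yb 3 and 0.37 without, and in AT5G39130 it was 1.26 and 0.79.

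In shoots 0 of the 100 were called, with these exceptions among the settings run. With the 6 libraries of a contrast alone, 1 was called for Yb against control (AT3G28510) and 1 for La against Yb (AT3G01830). Over the libraries left out, 0 to 1 were called for Yb against control, AT3G28510 without La 3 and MSRB8 without control 3. With the replicate block, 1 was called for La against control (AT2G46220). Deviations from the group means, compared between same-numbered libraries of different groups, correlated at -0.125 to 0.182 in roots and -0.08 to 0.061 in shoots. Over all shoot genes the block gave 34 calls for Yb against control, 49 for La against control and 30 for La against Yb. Without the block these were 9, 19 and 2, so a pairing by replicate number is not settled. The block left the calls of the 2 lists in Yb roots at 2.

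Of the genes of both lists, 2 were called in Yb roots, with 0 to 3 over the libraries left out, and 11 in La roots, with 6 without control 3 or La 2 and up to 16 without Yb 3. Genes below about 20 reads rest on few reads. The cause of each change was not tested.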
